A study of Homo sapiens with 10 samples.

Results

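Accessibility was followed at the start sites of 9 immediate early genes: EGR1, EGR2, EGR3, KLF6, NR4A1, IER2, IER5, DUSP1 and ZFP36. They were chosen by name, and the peaks belonging to each were those overlapping 2 kb to either side of 1 hg19 start site per gene. These windows touched 11 of the 35505 regions into which the peaks of all libraries merged on chromosomes 1 to 22 and X. The assay was ATAC-seq, which marks open chromatin by where a transposase can cut and tag the DNA, and the cells were CCRF-CEM, a leukemia line of T lymphoblasts. The parental line is labelled wild-type and SLFN11-positive, and the second line is labelled a knockout of SLFN11, a protein that acts at stressed replication forks. The sources used here do not say whether the knockout line is a single clone, and peak lists do not check the loss of the protein. Each line was sampled with DMSO, after 2, 4 or 6 h of 100 nM prexasertib, an inhibitor of the checkpoint kinase CHK1, and after 4 h of 100 nM camptothecin, which traps topoisomerase I on DNA. That gives 10 libraries in 10 groups, 1 per group, so all differences below are between single libraries, with no replicate spread, no test and no p-value. The series record notes truncated raw reads for 1 library, parental cells at 4 h of prexasertib; the sources used here do not say whether its peak list came from complete reads.

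Immediate early genes are transcribed within minutes of a growth factor, antigen receptor or stress signal, without new protein synthesis. Signals through the MAP kinases reach factors already bound at their promoters, among them serum response factor, which recognises the CArG box, and CREB, which recognises the cAMP response element. The first products are largely transcription factors such as the EGR zinc finger proteins, while others, such as the phosphatase DUSP1 and the RNA-decay factor ZFP36, switch the response off again. In T cells EGR2 and EGR3 are known as brakes on antigen receptor signalling.

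The bases before the start sites show which of these elements the genes carry. RefSeq start sites (GRCh38.p14) were matched by symbol for 8 of the 9 genes, at 11 start sites; EGR3 was not matched. The 250 bases upstream are printed for the 3 genes in which the CArG box or the full cAMP response element was found, 5′ to 3′ on the coding strand, with CArG boxes (CC, 6 A or T bases, GG) and TGACG, the core of the cAMP response element, in capitals. A match on the other strand reads CGTCA. RefSeq lists 3 EGR2 start sites, and the most downstream is shown. The GRCh38 and hg19 start sites were not matched base by base.
EGR1 chr5:138465229-138465478 (+): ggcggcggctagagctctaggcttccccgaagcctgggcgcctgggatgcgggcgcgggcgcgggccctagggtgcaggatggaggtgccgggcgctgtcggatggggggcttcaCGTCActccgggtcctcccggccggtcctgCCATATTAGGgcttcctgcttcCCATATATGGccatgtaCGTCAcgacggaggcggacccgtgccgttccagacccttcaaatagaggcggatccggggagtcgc
EGR2 chr10:62816367-62816616 (-): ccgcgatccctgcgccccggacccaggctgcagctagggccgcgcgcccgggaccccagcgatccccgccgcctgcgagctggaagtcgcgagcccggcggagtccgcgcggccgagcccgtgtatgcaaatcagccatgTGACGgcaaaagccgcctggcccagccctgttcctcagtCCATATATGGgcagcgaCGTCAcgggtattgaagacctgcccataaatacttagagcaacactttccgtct
DUSP1 chr5:172771196-172771445 (-): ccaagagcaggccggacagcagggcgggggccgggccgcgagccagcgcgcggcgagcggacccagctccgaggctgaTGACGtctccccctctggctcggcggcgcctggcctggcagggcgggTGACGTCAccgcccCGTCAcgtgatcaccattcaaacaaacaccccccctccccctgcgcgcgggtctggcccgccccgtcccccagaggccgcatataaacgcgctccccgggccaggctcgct
EGR1 held 2 CArG boxes, CCATATTAGG from 105 to 96 and CCATATATGG from 83 to 74 bases before the start. EGR2 held CCATATATGG from 71 to 62 bases before its start. A CArG box stood upstream of at least 1 start in 1.44% of the 27305 genes of the table, over stretches of the same length. DUSP1 alone among the 8 genes held the full TGACGTCA, present in 2.03% of all genes, and it overlaps 2 of that gene's 4 TGACG matches. TGACG, read on both strands, was found at EGR1, EGR2, IER2 and DUSP1, 4 of 8 genes, against 24.9% of all genes. The AP-1 site TGANTCA was in none of these genes' stretches, against 8.06% of all genes. Of other immediate early genes on the lists used here, 16 of 18 were in the table and 1, SRF, held a CArG box. Among relatives of the 9 genes 8 of 12 were in the table and none held one. TGACG was found in 10 of those 16 genes and in 4 of those 8 relatives, shares no lower than at the genes followed here. The full TGACGTCA was in 2 and 1 of them. Such matches describe sequence and do not show that a factor was bound.

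Each gene's level is given as the summit height, which is the number of fragments piled up at its highest summit divided by the genome-wide background pileup of that library. The pileup was recovered from the deposited fold and −log10 p-value, and the background, a measure of depth, lay between 1.33 and 1.63 in the parental and between 1.59 and 2.1 in the knockout libraries. Changes are log2 ratios with 95% exact binomial intervals, which cover counting error of the 2 pileups only. A gene is counted as higher or lower when its height differs at least 1.5-fold. Per the deposited lists, every gene had a peak in every library (9 of 9 in each). For scale, 11603 of the 35505 merged regions were called in all libraries, though a merged region is not a window around a start site. Start sites of other genes were not placed, so the counts by start site that follow have no share beside them. The start site itself lay inside a called peak for 5 to 7 of the 9 genes, depending on the library. A peak overlapped the 500 bp to either side of it for 7 to 9. The smallest pileup among the 90 gene and library pairs was 25, at DUSP1 in parental cells with DMSO. T cell markers and the genes on the lists above were not analysed as peaks here, because only the 9 start sites were given on hg19.

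EGR1, a zinc finger transcription factor and the classical immediate early gene, had the broadest and the highest peak of the 9 genes in all libraries but knockout DMSO, where the DUSP1 peak was broader (1875 against 1807 bp) and the EGR2 peak higher. Its start site lies on chromosome 5 at 137801181. In parental cells its summit height was 45.9 with DMSO, 51.4, 76.2 and 113 in the 2, 4 and 6 h prexasertib libraries, and 89.2 with camptothecin. In knockout cells the heights were 54.6 with DMSO, 69.1, 74 and 63.2 after prexasertib, and 54 after camptothecin. The parental level was thus higher at each later time, to 2.46-fold DMSO at 6 h (log2 1.30, 0.90 to 1.71), whereas the knockout series was highest at 4 h (log2 0.44, 0.04 to 0.84) and was at 0.21 (-0.19 to 0.62) by 6 h. That order holds for the summit height only. The parental deposited fold, a ratio over the local background, was 4.71 with DMSO and 5.00, 4.79 and 5.26 at the 3 prexasertib times. At 4 h the log2 change of the fold was 0.025 in parental and 0.33 in knockout cells. The undivided knockout pileup was highest at 2 h, at 145 against 137 at 4 h. The EGR1 peak was wider than 98.7% to 99.9% of all regions of the same library.

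From 4 h on, the EGR1 peak also reached further into the gene in treated parental cells. With DMSO it ran from 1337 bases before to 257 bases after the start. Its downstream edge was at 11, 647 and 860 bases along the 3 prexasertib times and at 813 with camptothecin, while the upstream edge stayed between 1327 and 1396 bases before the start. In knockout cells the downstream edge was already at 431 bases with DMSO and lay between 438 and 557 bases with treatment. A separate summit inside the gene, between 270 and 452 bases after the start, was called in the parental 4 h, 6 h and camptothecin libraries, and in the knockout line only at 6 h of prexasertib. Its height was 64.9 in the parental 4 h library, 73.5 at 6 h and 58.1 with camptothecin, against 24.6 in the knockout 6 h library. The stretch with both CArG boxes lies inside the called peak in all 10 libraries if the GRCh38 and hg19 starts coincide.

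**Figure D1:**
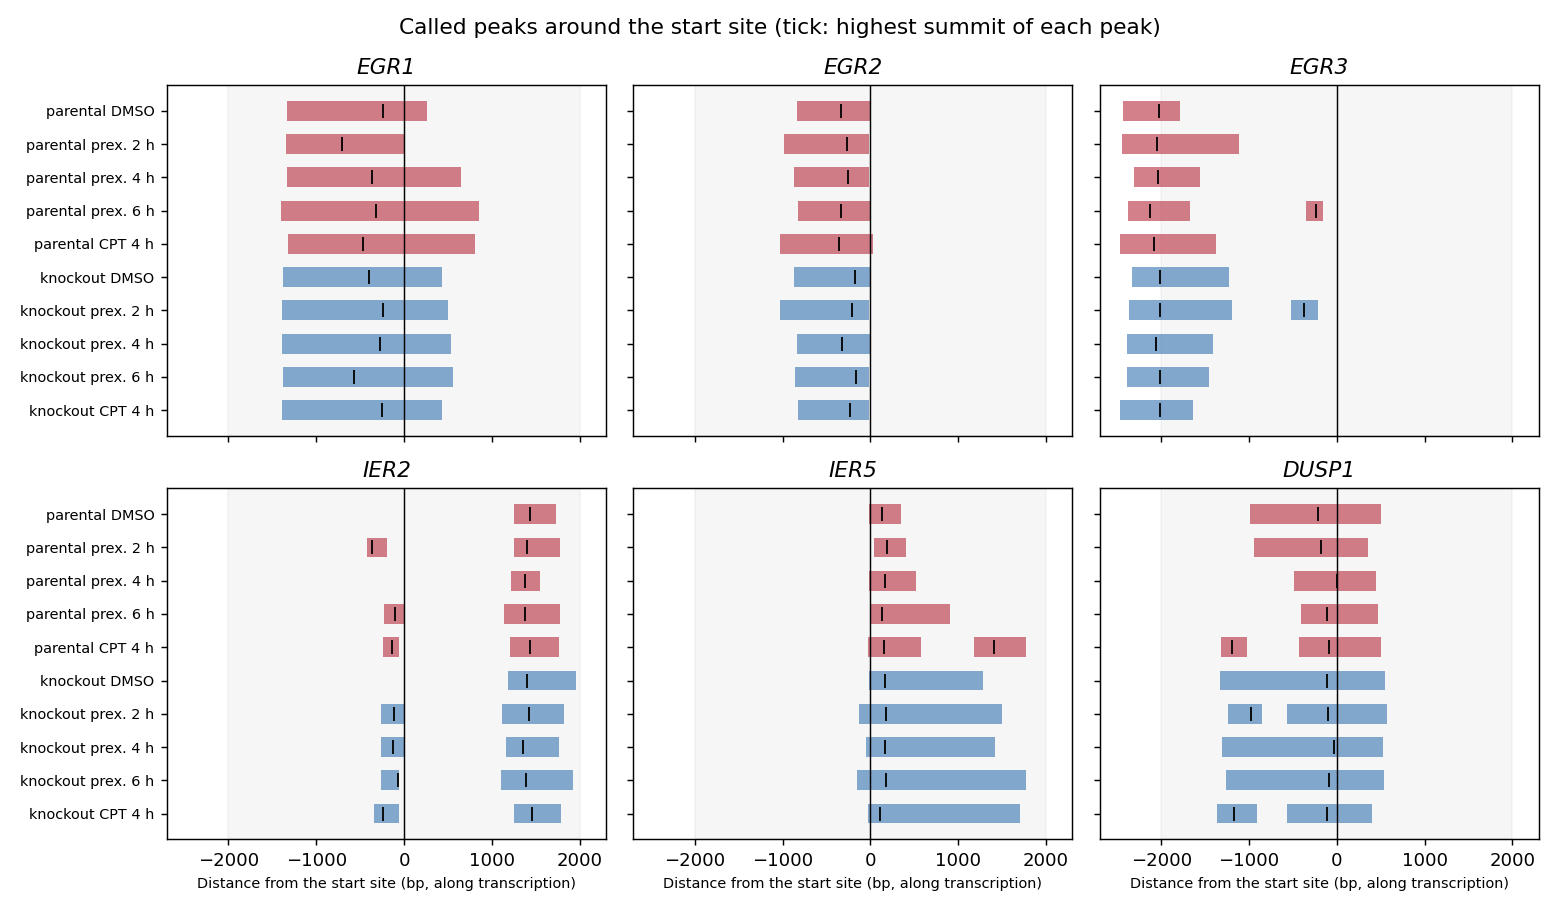
Called peaks of 6 genes in the 10 libraries, drawn by distance from the hg19 start site along the direction of transcription (bp); bars are peaks, ticks their highest summits, and the shaded band is the 2 kb window on either side. The EGR1 peak extends to 860 bases downstream in the parental 6 h library, IER2 has a peak just before its start in treated libraries only, and the EGR3 peak lies about 2 kb upstream.

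EGR2, a related zinc finger factor, behaved differently from EGR1. Its start site is on chromosome 10 at 64576126, and its peak lay on the upstream side, ending between 22 bases before and 28 bases after the start. The parental heights were 41.6 with DMSO, 32.5, 63.4 and 64.3 in the 2, 4 and 6 h prexasertib libraries, and 51.2 with camptothecin. The knockout heights were 62.1 with DMSO, 54.3, 52.9 and 42.6 over the same prexasertib times, and 47.1 after camptothecin. So the parental height was above DMSO from 4 h on and the knockout height was below DMSO in all 4 treated libraries. At 6 h the parental log2 change was 0.63 (0.17 to 1.10), and that of knockout cells -0.54 (-0.98 to -0.11). The parental camptothecin change of 0.30 (-0.20 to 0.80) had an interval that included 0. EGR2 widths stayed between 811 and 1063 bp in all libraries.

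EGR3, the third family member here, had its main peak away from the start. The hg19 start is on chromosome 8 at 22550815 and the gene is transcribed from the minus strand, so the highest summit, 2013 to 2131 bases away in the 10 libraries, is upstream. Parental heights were 19.6 with DMSO, 19, 26.4 and 42.6 at the 3 prexasertib times and 40.8 with camptothecin. Knockout heights were 33.9 with DMSO and between 28.6 and 32.1 in the 4 treated libraries. The parental 6 h and camptothecin heights were thus the highest of all 10, at log2 1.12 (0.49 to 1.78) and 1.06 (0.41 to 1.73) over DMSO. A second, weak peak closer to the start was called in only 2 libraries: parental 6 h prexasertib, from 349 to 160 bases upstream, and knockout 2 h prexasertib, from 517 to 212 bases upstream. Neither DMSO library had it.

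KLF6, a Krüppel-like zinc finger factor, was higher with prexasertib in both lines, though to different extents. Its start is on chromosome 10 at 3827473 and its summit stayed 119 to 164 bases upstream. The parental heights were 34.9 with DMSO, 48.1, 60.4 and 78.1 after 2, 4 and 6 h, and 54.6 after camptothecin. The knockout heights were 37.6 with DMSO, 46.7, 62.1 and 47.6, and 41.4 after camptothecin. The 4 h heights were close in both lines, at log2 0.79 (0.28 to 1.31) over DMSO in parental and 0.72 (0.26 to 1.20) in knockout cells, while at 6 h the parental height was 78.1 against 47.6.

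NR4A1, an orphan nuclear receptor induced by antigen receptor signals in T cells, had 1 peak across the start used here, on chromosome 12 at 52445186. Parental heights were 25.1 with DMSO, 21, 48.3 and 63.6 along the prexasertib times, and 45 with camptothecin. The knockout heights were 35.1 with DMSO, 39.5, 40 and 34.1 after prexasertib, and 29.9 after camptothecin. The knockout values lay within a narrow range and no knockout interval excluded 0, while the parental change at 6 h was 1.34 (0.80 to 1.91). RefSeq lists 2 NR4A1 start sites, and peaks at only 1 hg19 start were analysed here.

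IER2, a small nuclear protein, has its start on chromosome 19 at 13261282, next to the gene STX10 in the RefSeq order. Its highest peak was not at the start but 1355 to 1459 bases downstream. Heights there were 28.8 with DMSO, 31.8, 47.5 and 70.2 at the 3 prexasertib times and 65 with camptothecin in parental cells. In knockout cells they were 37.6 with DMSO, 54.8, 42.7 and 50.1 after prexasertib and 33.3 after camptothecin. The knockout 2 h height exceeded DMSO by log2 0.54 (0.08 to 1.02), and IER2 was with ZFP36 the only gene whose knockout 2 h interval lay above 0.

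A second IER2 peak, just before the start, was called in treated libraries only. In parental cells it ran from 227 to 2 bases upstream after 6 h of prexasertib, with a height of 47.2, and from 239 to 55 bases after camptothecin, with a height of 38.7. After 2 h a peak of height 17.6 was called further out, from 426 to 199 bases, and after 4 h none was called. In knockout cells a peak lying between 337 bases upstream and 8 bases downstream was called in all 4 treated libraries, with heights between 19.5 and 23.8. Neither DMSO list had a peak there. For scale, the share of all called regions that were absent from the DMSO list was 16.4%, 22.7% and 37.5% in the parental 2, 4 and 6 h prexasertib libraries and 33.1% in the parental camptothecin library, and 24%, 18.5%, 22.9% and 13.3% in knockout cells. A peak that is not called may still hold signal below the calling threshold of each list, and reads there cannot be assigned to IER2 or to STX10.

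IER5, a relative of IER2 known as a target of stress signalling, differed between the lines in width. Its start is on chromosome 1 at 181057638, and the summit lay 111 to 190 bases downstream. The widest parental peak was 361 bp with DMSO, then 360, 531 and 918 bp along the prexasertib times, and 601 bp with camptothecin. In knockout cells it measured 1306 bp with DMSO and between 1473 and 1918 bp with treatment. No parental width reached any knockout width. With camptothecin a second parental peak lay from 1178 to 1777 bases downstream, and both together covered 1201 bases, still under the 1306 of knockout DMSO. Its parental heights, in that order, were 23.9, 25, 47.5, 60.4 and 42.2, and its knockout heights 38.3, 27.6, 32.4, 29.6 and 23. Every treated knockout height was below DMSO and every treated parental height above it. At 6 h of prexasertib the parental log2 change was 1.34 (0.78 to 1.92). The knockout camptothecin change was -0.73 (-1.35 to -0.14), the lowest of the 9 genes.

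DUSP1, the phosphatase that inactivates MAP kinases, had the largest parental change. Its start is on chromosome 5 at 172198203. The parental heights were 15.3 with DMSO, 24.4, 37 and 55.1 in the 2, 4 and 6 h prexasertib libraries, and 47.7 with camptothecin. With DMSO it was the lowest of the 9 genes. The knockout heights were 28.2 with DMSO, 31, 31.3 and 27.6 after prexasertib, and 21.3 after camptothecin. The parental 6 h height was 3.60-fold DMSO (log2 1.85, 1.19 to 2.55), and 96.5% of all regions called in both lists had a smaller change. After camptothecin it was 3.12-fold (1.64, 0.96 to 2.36), with 97.4% of regions below it. DUSP1 was also the only gene at least 1.5-fold higher after 2 h in parental cells (log2 0.67, -0.10 to 1.47). The low DMSO pileup of 25 enters each of these parental ratios.

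While its summit was higher, the parental DUSP1 peak was shorter. It measured 1491 bp with DMSO, from 987 bases before to 503 bases after the start, and 1289, 941, 888 and 931 bp with 2, 4 and 6 h of prexasertib and camptothecin. At 2 h it still ran from 939 bases before the start, but in the other treated parental libraries it began no further than 489 bases before it. With camptothecin a separate peak lay from 1323 to 1027 bases upstream, and both pieces together covered 1228 bases. In knockout cells the widths were 1875, 1145, 1834, 1794 and 969 bp in the same order, and after 2 h of prexasertib and after camptothecin an upstream piece was called separately, for 1533 and 1426 bases in all.

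ZFP36, which binds AU-rich elements and promotes decay of early response mRNAs, had a single peak across its start on chromosome 19 at 39897487. Heights were 22.6 with DMSO, 25.7, 39.2 and 58.4 at the 3 prexasertib times and 56 with camptothecin in parental cells. In knockout cells they were 22.6 with DMSO, 35.2, 36.7 and 29.1 after prexasertib and 23 after camptothecin. With DMSO the height was nearly the same in both lines, and the 4 h heights were close too, with a parental log2 change of 0.79 (0.16 to 1.44) and a knockout change of 0.70 (0.10 to 1.33). The camptothecin changes were far apart, at 1.31 (0.73 to 1.91) and 0.03 (-0.66 to 0.72).

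**Figure D2:**
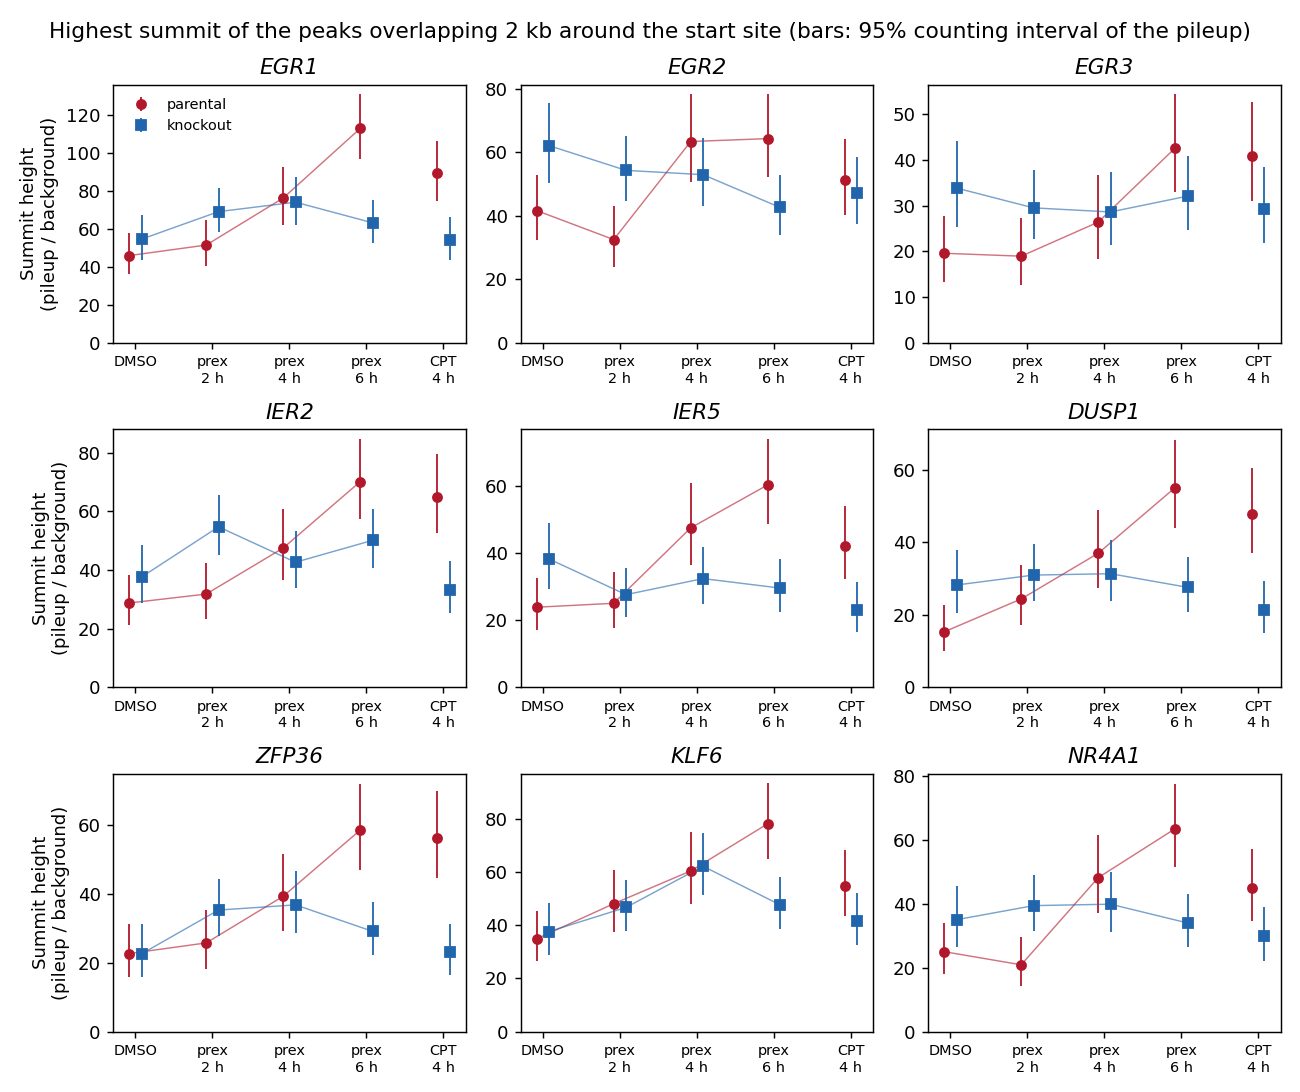
Summit height (pileup over genome-wide background, no unit) of the 9 genes in each library; circles are parental, squares knockout, lines join DMSO and the prexasertib times, and bars are 95% exact Poisson intervals of the pileup. All 9 genes are higher in the parental 6 h library than with parental DMSO, EGR1 at 113 against 45.9.

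Across the 9 genes, parental heights were above DMSO in 6 genes after 2 h and in 9 of 9 at 4 h, at 6 h and with camptothecin. Of all regions called in both lists 66.4%, 89.1%, 90.2% and 91.6% were above DMSO. The numbers of genes at least 1.5-fold higher were 1, 8, 9 and 8. The same share over all regions called in both lists was 10.1%, 50.3%, 70.9% and 66.4%, so from 4 h on the same direction was common among all regions. The median log2 change of the 9 genes was 0.15, 0.79, 1.30 and 0.96, against 0.15, 0.59, 0.96 and 0.78 over all regions. At 6 h 8 of the 9 genes, all but EGR2, stood above the median of all regions. The chromosomes differ as well: at 6 h the median over chromosome 19 regions was 1.36, and IER2 and ZFP36, which lie there, changed by 1.29 and 1.37. On chromosome 5 the median was 0.77, and EGR1 and DUSP1 changed by 1.30 and 1.85.

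Measured against the local background instead, the order was reversed. The highest deposited fold at the 9 genes changed by a median log2 of 0.17 after 4 h, 0.34 after 6 h and 0.088 after camptothecin in parental cells, against 0.22, 0.46 and 0.33 over all regions. At EGR1 the fold was 4.71 with DMSO and 5.26 after 6 h, while its local background was 15.1 and 31.9 fragments. At IER2 the fold was 3.29 and 3.67 and the local background 13.6 and 28.4. The local background was thus higher along with the summits at EGR1 and IER2. The stretch over which it was taken is unknown and may include the peak itself. Whether signal outside the peaks was higher was therefore not tested. DUSP1 (fold 3.93 and 7.20) was the only gene with at least a 1.5-fold change in fold at 6 h. In parental cells all 9 folds were higher after 6 h, 8 were higher after 4 h and 8 after camptothecin. The region medians of the fold change were positive too and above those of the 9 genes, so higher folds were common among all regions. The shares of regions with a higher or an at least 1.5-fold higher fold are not given here.

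**Figure D3:**
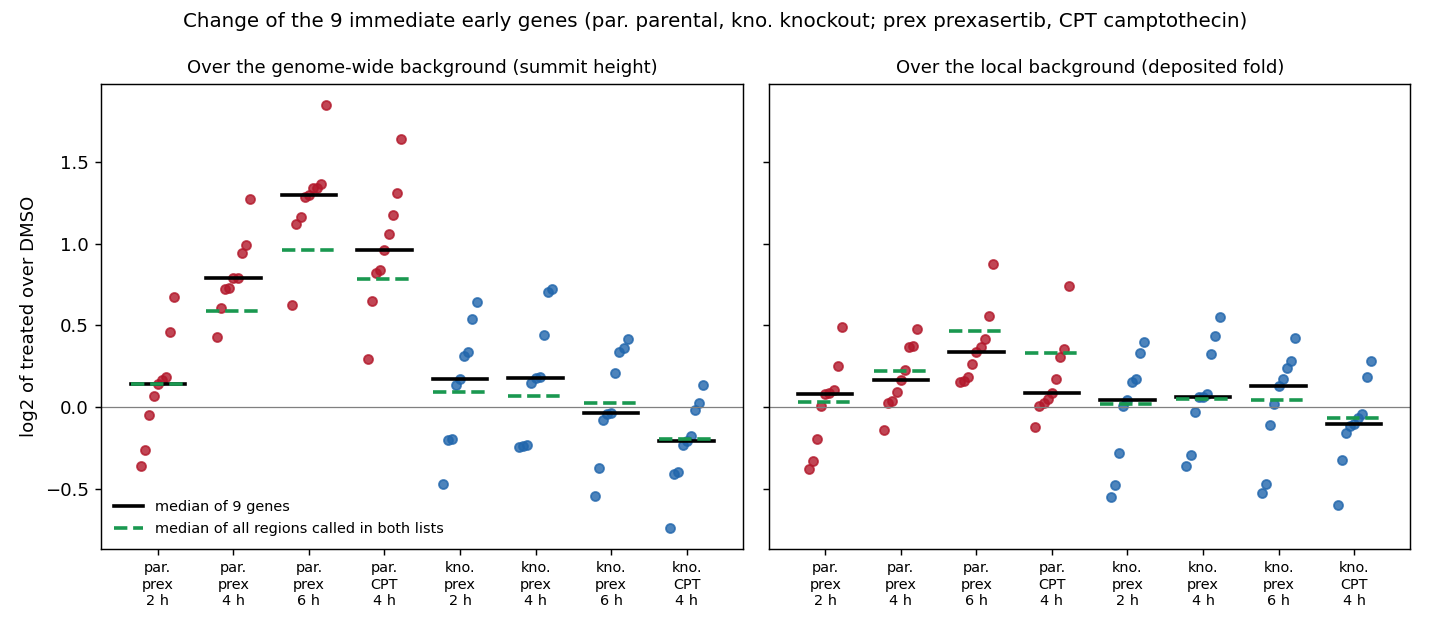
log2 of treated over DMSO for the 9 genes (points) in 8 comparisons; left, summit height over the genome-wide background, right, the deposited fold over the local background. Black lines are medians of the 9 genes and green dashed lines medians of all regions called in both lists: at 6 h in parental cells 1.30 against 0.96 on the left and 0.34 against 0.46 on the right.

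In knockout cells the genes split by direction. At least 1.5-fold higher were ZFP36 after 2 h, KLF6 and ZFP36 after 4 h, and none after 6 h of prexasertib or after camptothecin; the shares over all regions were 6.55%, 5.51%, 4.47% and 1.46%. EGR2, EGR3 and IER5 were below DMSO in all 4 treated knockout libraries, and KLF6 and ZFP36 above it in all 4. The intervals that excluded 0 were those of EGR2 at 6 h, IER5 with camptothecin, KLF6 at 4 h, and ZFP36 at 2 and 4 h. The other knockout intervals of these genes included 0, among them every treated EGR3 interval. Some of these signs turned with the scaling: undivided pileups gave 0.20 for both EGR2 and EGR3 at 2 h and 0.25 for EGR3 at 6 h, and the local background gave -0.066 for ZFP36 with camptothecin. With only the summits inside the window, which leave out the main EGR3 summit, EGR3 at 4 h was at 0.17. With camptothecin 7 of 9 genes were below DMSO, and only 27.3% of all regions were above it. IER5 was at least 1.5-fold lower, as were 12.9% of all regions. The median log2 changes were 0.17, 0.18, -0.03 and -0.21, against 0.09, 0.07, 0.02 and -0.20 over all regions. These 4 comparisons share 1 DMSO library, and the 4 parental ones share another.

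Before treatment the parental heights were the lower ones. With DMSO 8 of 9 genes were lower in parental than in knockout cells, and only 15% of all regions were higher. The median log2 ratio was -0.48 against -0.40 over all regions. DUSP1, EGR3 and IER5 were at least 1.5-fold lower, as were 30.8% of all regions. After 2 h of prexasertib 8 were lower, and only 17.5% of all regions were higher. EGR2, EGR3, IER2 and NR4A1 were at least 1.5-fold lower, against 26.2%. For EGR3 the sign turned when only summits inside the window were used (log2 0.24). After 4 h none was at least 1.5-fold higher, against 9.68%. After 6 h all 9 were higher in parental cells, as were 79.6% of all regions. At least 1.5-fold higher were 7, all but EGR3 and IER2, against 40.3%. After camptothecin all 9 were higher, as were 85.8% of all regions. At least 1.5-fold higher were 6, all but EGR2, EGR3 and KLF6, against 48.5%. Over the local background the EGR1 ratio with camptothecin was -0.026 on the log2 scale, against 0.72. The parental change exceeded the knockout change by a median log2 of -0.16, 0.67 and 1.17 along the prexasertib times and 1.27 with camptothecin, and over all regions by 0.03, 0.50, 0.92 and 1.02. The region medians were positive as well, so a positive difference was common among all regions, though its share is not given here. The difference was positive in 4, 9, 9 and 9 of the 9 genes, and over the local background in 4, 5, 6 and 7. There it turned negative at 6 h for EGR1 (-0.13), IER2 (-0.27) and KLF6 (-0.053), and with camptothecin for EGR1 (-0.16) and KLF6 (-0.28). It includes the lower parental DMSO heights, and it was not tested.

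Widths followed the heights less closely. In parental cells 1, 1 and 2 genes were at least 1.5-fold wider along the prexasertib times and 3 with camptothecin, against 10%, 14.7%, 22.7% and 22.6% of all regions. They were EGR3 after 2 h, ZFP36 after 4 h, IER5 and KLF6 after 6 h, and EGR3, IER5 and ZFP36 after camptothecin. Parental DUSP1 was at least 1.5-fold narrower after 4 h, 6 h and camptothecin, against 8.01%, 6.17% and 5.42% of regions. In knockout cells its log2 width change was -0.71 after 2 h and -0.95 after camptothecin, with 1.97% and 4.08% of regions below it. In these knockout libraries and in the parental camptothecin library an upstream piece was called as a separate peak. The pieces together covered 1533 and 1426 bases in knockout cells, against 1875 with DMSO. In the parental camptothecin library they covered 1228 bases, against 1491 with DMSO. The median log2 width change was 0.47 after 6 h and 0.50 after camptothecin in parental cells, against 0.23 and 0.22 over all regions. In knockout cells it was 0.10 and -0.17, against 0.13 and -0.03.

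**Figure D4:**
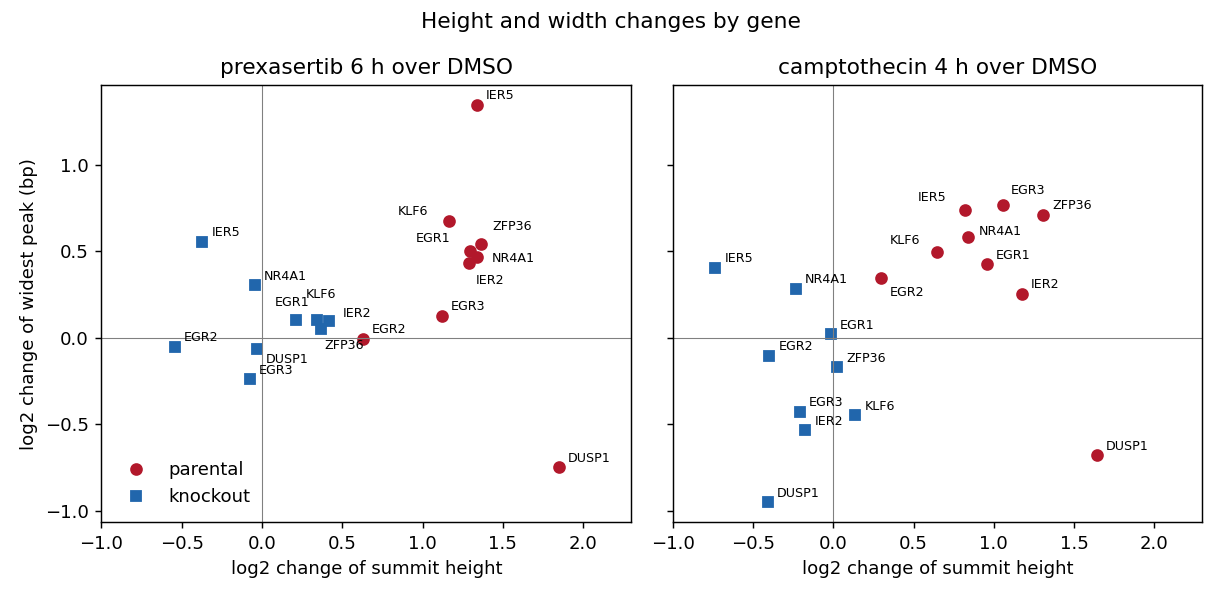
log2 change of summit height (horizontal) and of the widest peak (vertical) by gene after 6 h of prexasertib (left) and 4 h of camptothecin (right), each over DMSO of the same line; circles are parental, squares knockout. IER5 lies highest at 6 h (log2 width 1.35), and DUSP1 combines the largest height change, 1.85, with a width change of -0.75.

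Over the 10 libraries the log2 height of ZFP36 followed that of EGR1 most closely among the 9 genes (Pearson r 0.965), then DUSP1 (0.951) and IER2 (0.928), and EGR2 least (0.625). The 10 points share the depth of each library. Over 11556 other regions called in all libraries the median r with EGR1 was 0.821, so likeness to EGR1 was common. The 5 most similar regions had r between 0.989 and 0.995. On hg19 they span bases 24550436 to 24551506 and 30661528 to 30662952 of chromosome 16, 35167921 to 35168973 of chromosome 19, 170680951 to 170681704 of chromosome 2, and 120894410 to 120895341 of chromosome 11. They are given without annotation.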

How the data were processed

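ATAC-seq was run on 10 CCRF-CEM libraries, 1 per genotype and treatment. The submitters' processing notes name MACS2 2.1.2, which calls peaks, BWA 0.7.17, an aligner, the trimmers Trimmomatic 0.39 and Trim Galore 0.6.2, and, for handling alignments, Picard 2.9.2 and SAMtools 1.8, with build hg19. They name no parameters; duplicate removal and any shift of reads for the transposase are not given in the sources used here. Per the values in them, the deposited lists hold 1 line per summit: start, end, a score, the fold (a ratio over the local background), −log10 p-value and −log10 q-value. The score was not used. Depth as read counts is unknown.

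The fold is (pileup + 1) over (local background + 1), and the p-value is a Poisson tail; solving both for a whole pileup matched the deposited −log10 p within 0.001 for at least 99.7% of summits. The smallest local background of a list was taken as its genome-wide background. The highest summit of all peaks overlapping a window gave the height. Peaks of all lists overlapping by 1 bp or more were merged into regions. Steps were tested on simulated data (Python 3.11.15, scipy 1.17.1, pandas 2.3.3, matplotlib 3.10.9). The genes and lists were chosen with earlier results of these data known, and all 9 genes are named, with the 5 regions whose log2 heights correlated best with EGR1. Alternatives were the undivided pileup, the local background, a 1 kb window (500 bp only for the number of genes with a peak), summits inside the window, bases covered in place of the widest peak, a −log10 q of at least 10, and a 2-fold call. Single-gene values between the lines were recomputed under these as an addition after seeing the data. Samples were grouped by the labels' source names. Promoter sequences are RefSeq's, on GRCh38.p14.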

Additional observations from a re-analysis of the deposited data

Results flagged for a closer look

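With 1 library per group none of the following differences between the lines was tested. They were listed because the parental and the knockout log2 height change over DMSO had opposite signs. Several signs depended on the scaling. With undivided pileups the knockout 6 h changes were 0.29 at DUSP1, 0.28 at NR4A1, 0.25 at EGR3 and 0.29 for the median. Over the local background they were 0.13, 0.018, -0.11 and 0.13. Knockout EGR1 with camptothecin was at 0.11 and 0.18. Parental IER5 at 2 h was at -0.076 undivided. Over the local background parental EGR3 at 4 h was at -0.14 and EGR2 with camptothecin at -0.12. Among the knockout changes of single genes listed here, the interval excluded 0 for EGR2 at 6 h of prexasertib and for IER5 with camptothecin, and included 0 for the others. Among the parental changes it included 0 for IER5 and NR4A1 at 2 h, EGR3 at 4 h and EGR2 with camptothecin, and excluded 0 for the others.

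The median over the 9 genes of the parental minus knockout difference was 1.17 after 6 h of prexasertib and 1.27 after camptothecin. The medians of the changes themselves were 1.30 in parental and -0.03 in knockout cells at 6 h, and 0.96 and -0.21 with camptothecin. After 2 h of prexasertib the parental minus knockout difference was 0.54 at IER5 and -0.43 at NR4A1, where the parental change was the negative one. After 4 h it was 0.84 at EGR2, 0.67 at EGR3 and 1.23 at IER5. After 6 h it was 1.17 at EGR2, 1.20 at EGR3, 1.71 at IER5, 1.88 at DUSP1 and 1.38 at NR4A1. After camptothecin it was 0.97 at EGR1, but -0.16 there over the local background, 0.70 at EGR2, 1.27 at EGR3, 1.35 at IER2, 1.56 at IER5, 2.05 at DUSP1 and 1.07 at NR4A1.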

How the results depend on the processing

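No paired analysis was possible because each group has 1 library. Division of the pileup mattered most. Over the local background the median log2 changes of the 9 genes were 0.17, 0.34 and 0.088 in parental cells after 4 h, 6 h and camptothecin, and the genes at least 1.5-fold higher numbered 0, 0, 1 and 1 after 2, 4 and 6 h and camptothecin, and 0 and 0 in knockout cells after 2 and 4 h. The parental over knockout medians became -0.10 with DMSO, -0.10, -0.063 and 0.26 after 2, 4 and 6 h, and 0.15 with camptothecin, and the parental minus knockout changes 0.22, 0.44 and 0.25 after 4 h, 6 h and camptothecin. Without division, and so without correction for depth, the parental 4 h median was 0.49 and the knockout 2 h median 0.57; the genes counted as higher were 0 and 3 in parental cells after 2 and 4 h, and 4 and 3 in knockout cells after 2 and 6 h. The parental over knockout medians were then -0.96, -0.33 and 0.45 after 2, 4 and 6 h, and the parental minus knockout changes -0.71, 0.16 and 0.75. The median parental over knockout ratio at 4 h was positive only over the genome-wide background, which was lowest in the parental 4 h library, whose raw reads are recorded as truncated. A −log10 q of at least 10 leaves out genes without a value in both libraries. The counts were then 0 of 4, 5 of 6 and 5 of 6 in parental cells after 2 h, 4 h and camptothecin. In knockout cells they were 0 of 8 and 1 of 8 after 2 and 4 h. At a 2-fold call, with all 9 genes, the counts were 0, 1 and 4 in the same parental libraries, and 0 and 0 in the knockout ones. For heights, shares over all regions are given only for the 1.5-fold call over the genome-wide background. The counts under these alternatives therefore have no such share beside them and cannot be set against all regions. Among regions with a DMSO peak of at least 1000 bp, 80.5% were at least 1.5-fold higher after 6 h and 73.1% after camptothecin in parental cells. The 1 kb window kept 7 or 8 of the 9 genes, and summits inside the window 8 or 9. The 1 kb window and summits inside the window moved no median height change by more than 1 SD over the genes and no count by over 1.5 times, and bases covered moved no median width change by more than that. The number of genes with a peak, the only value recomputed with a 500 bp window, was then 7 to 9 of 9 and stayed within 1.5 times. No change over DMSO of at least 1.5-fold reversed. Between the lines 6 single-gene values did, in runs added after seeing the data. Over the local background they were the EGR1 ratio with camptothecin (-0.026), and the parental minus knockout changes of EGR1 (-0.13), IER2 (-0.27) and KLF6 (-0.053) at 6 h and of EGR1 with camptothecin (-0.16). With summits inside the window it was the EGR3 ratio at 2 h (0.24). The cause was not tested.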
